A study of Mus musculus with 5 samples.

Results

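Whole cells and isolated nuclei were compared within 3 labels of the distal nephron of mouse kidney: the ascending limb of the loop of Henle, which the authors' annotation calls LH(AL), the distal convoluted tubule (DCT) and the connecting tubule (CNT). The members are 921 barcodes with these labels, of 11395 barcodes in the healthy libraries and 17542 in all. Of these, 367 were whole cells (124 LH(AL), 146 DCT, 97 CNT) and 554 were nuclei (262, 131 and 161). Barcodes labelled LH(AL) with more haemoglobin counts than Slc12a1 plus Umod counts were left out, which removed 4 whole cells and 0 nuclei. The closest barcode left out held 1 haemoglobin count and 0 counts of these 2 genes, and the closest one kept held 1 and 8.

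Both libraries came from healthy C57BL/6 mouse kidney, and the labels give neither the sex nor the age of the animals used for either. Whole cells were released with Liberase and DNase at 37 °C, sorted on light scatter and run on Drop-seq. Nuclei were released on ice in a detergent lysis buffer with a Dounce homogenizer and run on sNucDrop-seq, the nuclear form of that method. Each preparation is 1 library, so no difference below has a replicate check, the animal and the preparation cannot be told apart, and every interval covers counting error only. Healthy nuclei of the same study run on DroNc-seq (495 distal barcodes) and on the 10x platform (867) served as other references, and their values are given where they change a direction or bring a ratio near 1.

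The distal nephron takes back salt with little water and sets the final loss of sodium, potassium, calcium and magnesium. The thick ascending limb moves sodium chloride with the cotransporter Slc12a1 and secretes uromodulin (Umod), the distal convoluted tubule uses the thiazide-sensitive cotransporter Slc12a3, and the connecting tubule combines the sodium channel ENaC with calcium transport through Trpv5, calbindins (Calb1, S100g) and the exchanger Slc8a1. A nucleus holds newly made transcripts, many still unspliced, while a whole cell adds the cytoplasmic pool of mature mRNA and the RNA of mitochondria.

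Levels are CPM, the counts of a gene scaled to 1000000 of all UMIs summed over the barcodes of a label and library. The sums held 198910 (LH(AL)), 324421 (DCT) and 196422 UMIs (CNT) in whole cells, and 376864, 207325 and 251363 in nuclei. A median barcode held 1424.5, 1936.5 and 1620 UMIs in whole cells and 1128, 1227 and 1272 in nuclei. At 500 UMIs drawn from each barcode, the median number of genes was 308, 315.5 and 301 in whole cells and 372, 349 and 363 in nuclei, and no barcode was too shallow to be drawn. Before drawing, the medians were 714, 953.5 and 787 genes in whole cells and 729, 753 and 778 in nuclei. The libraries shared 0 barcode sequences in these labels and 1 over all labels.

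The labels were checked on 16 marker genes. In whole cells, the markers of the label outnumbered those of each of the other distal labels in 117 of 124 LH(AL), 127 of 146 DCT and 94 of 97 CNT barcodes, and in nuclei in 258 of 262, 115 of 131 and 140 of 161. Tmem52b, given as a DCT marker, was higher in CNT than in DCT in both preparations, at 128% of its DCT level in whole cells and 185% in nuclei. Genes of the proximal tubule, the most common cell type of the kidney, were counted in every distal label. Their 20-gene sum was 21175, 10345 and 15314 CPM in LH(AL), DCT and CNT whole cells and 14854, 11803 and 13196 CPM in nuclei. Against the proximal tubule labels of the same library, that was 31.8%, 15.5% and 23.0% in whole cells and 46.8%, 37.2% and 41.6% in nuclei. Its part in each result below was not tested. Some values are also given without the barcodes that held more proximal tubule than own-label counts. That kept 67, 99 and 79 whole cells and 185, 104 and 104 nuclei.

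Over the 3 labels pooled, 9087 genes had 20 or more counts over both sums and were listed in both libraries. Of these, 1857 (20.4%) were at least 2-fold higher in whole cells and 4215 (46.4%) at least 2-fold lower, with a median log2 ratio of whole cells over nuclei of -0.82. In LH(AL), 20.1% of 5501 genes passed 2-fold upward and 49.9% downward, with a median of -0.996. In DCT, 28% of 4779 genes were higher and 42.6% lower (median -0.59), and in CNT 22.5% of 4472 were higher and 48% lower (median -0.89). The split depends on the scaling. The trimmed mean of M-values (TMM) added 0.69 to every pooled log2 ratio, which left 2717 genes higher and 2712 lower, and median-of-ratios scaling added 0.78, which left 2789 and 2551. In DCT the split turned under both, to 1753 higher and 1408 lower with TMM and to 1750 and 1416 with median-of-ratios scaling. Leaving the genes of mitochondria and ribosomal proteins out of the totals gave 2426 higher and 3166 lower over the pool. Each scaling moves all genes of a comparison by the same amount, so a list's distance from the median of all genes does not depend on it.

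Slc12a1, Slc12a3 and Slc8a1, transporters that define the 3 segments, were higher in nuclei, while Umod, Pvalb, Calb1 and S100g, markers of the same labels, were higher in whole cells. In LH(AL), Slc12a1, the furosemide-sensitive sodium-potassium-chloride cotransporter, stood at 6681 CPM in whole cells and 15332 CPM in nuclei (log2 ratio -1.20, interval -1.29 to -1.11). Umod, whose product is the most abundant protein of normal urine, went the other way, at 5208 against 2518 CPM (1.05, 0.92 to 1.18). Thus nuclei held 2.29-fold more Slc12a1 and whole cells 2.07-fold more Umod within the same label. Against DroNc-seq nuclei the log2 ratio of Umod was 0.44, and against 10x nuclei it was 2.97.

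Other ascending limb genes lay on both sides. Cldn16 and Cldn10, claudins that form the paracellular cation pathway, were higher in whole cells, at 312 against 74.3 CPM (log2 ratio 2.07, 1.40 to 2.77) and at 518 against 204 CPM (1.34, 0.90 to 1.79). Sostdc1, a secreted antagonist of BMP and Wnt signals, was at 704 against 79.6 CPM (3.14, 2.57 to 3.76). Wfdc15b, a small protein with a WAP domain, was at 3595 against 154 CPM (4.55, 4.16 to 4.96). Higher in nuclei were Casr, the calcium-sensing receptor, at 85.5 against 573 CPM (-2.75, -3.55 to -2.03), and Erbb4, a receptor of the EGF receptor family, at 402 against 6167 CPM (-3.94, -4.28 to -3.62). Egf, which this segment and DCT secrete, was among the genes higher in nuclei, with 5198 CPM in LH(AL) whole cells and 9157 CPM in LH(AL) nuclei (-0.82, -0.92 to -0.72). Its log2 ratio was 0.00 against 10x nuclei. The prostaglandin receptor gene Ptger3 was at 588 and 589 CPM, a log2 ratio of -0.00 with an interval of -0.34 to 0.33, which TMM scaling moved to 0.45.

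**Figure D1:**
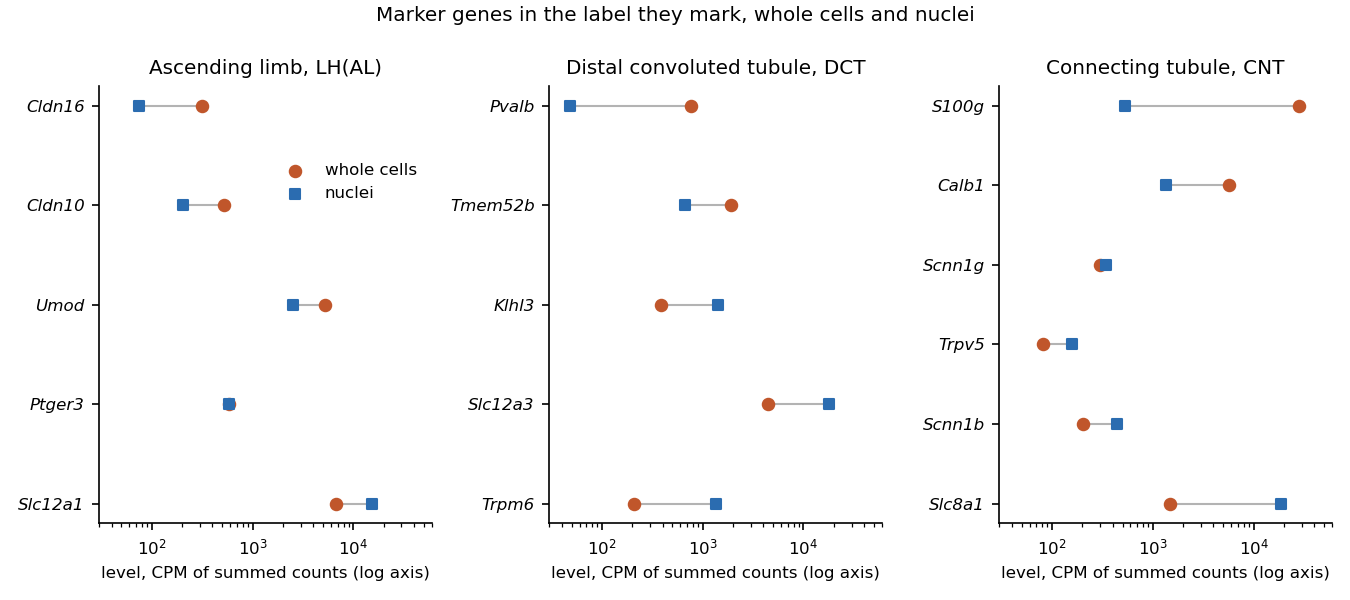
Level of each marker gene in the label it marks, in CPM of summed counts on a log axis, for whole cells (circles) and nuclei (squares), 1 library each. The cotransporters Slc12a1 and Slc12a3 and the exchanger Slc8a1 lie to the right in nuclei, and Umod, Pvalb, Calb1 and S100g lie to the right in whole cells.

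In DCT, Slc12a3 was at 4476 CPM in whole cells and 17880 CPM in nuclei (log2 ratio -2.00, -2.09 to -1.91). Trpm6, the magnesium channel of this segment, was at 210 against 1360 CPM (-2.70, -3.10 to -2.31). Klhl3, an adaptor of the ubiquitin ligase that degrades WNK kinases, was at 382 against 1404 CPM (-1.88, -2.19 to -1.57), and Abca13, a large ABC transporter, at 564 against 5122 CPM (-3.18, -3.42 to -2.96). All 4 were therefore higher in nuclei, by 3.67-fold to 9.08-fold. Higher in whole cells were Pvalb, the cytosolic calcium buffer parvalbumin, at 774 against 48.2 CPM (4.00, 3.10 to 5.08), and Fxyd2, the small gamma subunit of the sodium pump, at 7068 against 560 CPM (3.66, 3.39 to 3.94). Against 10x nuclei the log2 ratio of Pvalb turned to -0.30, and against DroNc-seq nuclei it was 3.83. Tmem52b was at 1914 against 670 CPM (1.51, 1.25 to 1.79), and Calb1 reached 1939 against 526 CPM in this label (1.88, 1.59 to 2.19).

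S100g and Klk1 were far higher in whole cells of CNT. S100g, the vitamin D-dependent calbindin that shuttles calcium through the cytosol, was at 28047 CPM in whole cells and 525 CPM in nuclei, a 53.4-fold difference (log2 ratio 5.74, 5.49 to 6.00). Klk1, the secreted protease tissue kallikrein, was at 25914 and 469 CPM, a 55.2-fold difference (5.79, 5.52 to 6.06). Against DroNc-seq nuclei the log2 ratios of S100g and Klk1 in this label were 6.70 and 6.07, and against 10x nuclei 7.4 and 6.45, so they were higher in whole cells than in each of the 3 healthy nucleus libraries. Calb1, the larger calbindin, was at 5636 against 1345 CPM (2.07, 1.89 to 2.25). Slc8a1, the sodium-calcium exchanger through which calcium leaves these cells, was at 1466 CPM in whole cells and 18614 CPM in nuclei, 12.7-fold higher in nuclei (-3.67, -3.84 to -3.49). Calcium entry through Trpv5 was less apart, at 81.5 against 159 CPM (-0.97, -1.90 to -0.10).

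The sodium channel subunits of CNT lay nearer to 1. Scnn1g (gamma) was at 300.4 and 346 CPM (log2 ratio -0.20, -0.71 to 0.29), Scnn1a (alpha) at 122 and 211 CPM (-0.79, -1.55 to -0.07) and Scnn1b (beta) at 204 and 442 CPM (-1.12, -1.68 to -0.58). With TMM scaling the value for Scnn1g was 0.32. The aldosterone machinery of the same label split: Nr3c2, the mineralocorticoid receptor, was at 96.7 against 1345 CPM (-3.80, -4.55 to -3.13), and Hsd11b2, the enzyme that shields it from glucocorticoids, at 1181 against 454 CPM (1.38, 1.05 to 1.72). The water channels Aqp2 and Aqp3, at 555 against 159 CPM (1.80, 1.27 to 2.36) and 224 against 23.9 CPM (3.23, 1.99 to 4.75), were higher in whole cells. The log2 ratio of Aqp2 in CNT was -0.00 against 10x nuclei. Vdr, the vitamin D receptor, was at 204 against 533 CPM (-1.39, -1.94 to -0.87).

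**Figure D2:**
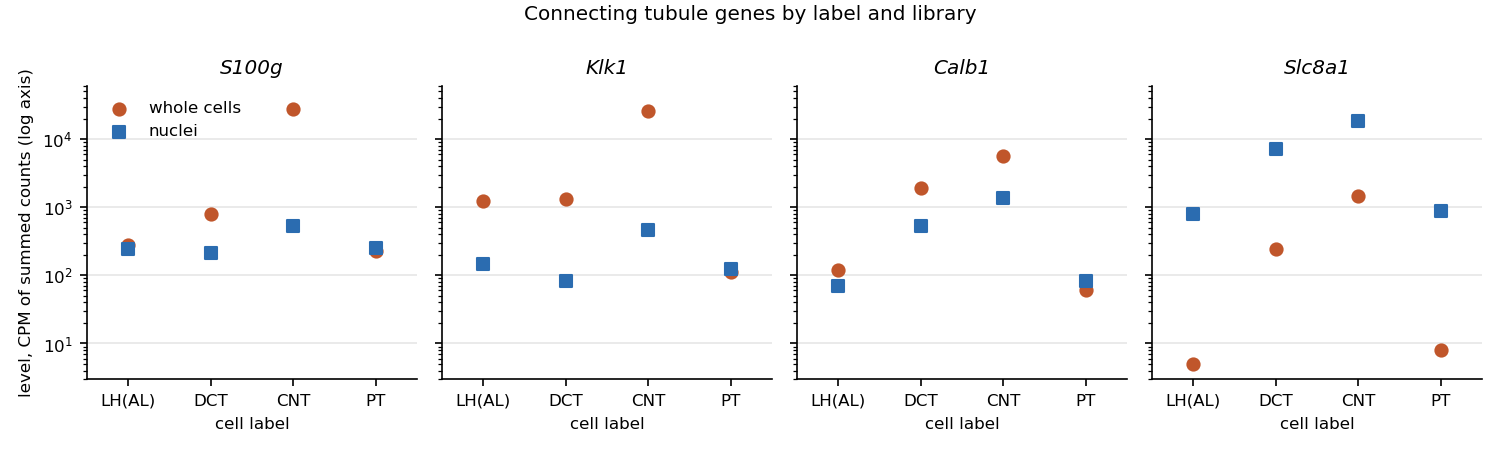
Level of 4 connecting tubule genes in CPM of summed counts (log axis) in the 3 distal labels and in the proximal tubule labels (PT), for whole cells (circles) and nuclei (squares), 1 library each. S100g and Klk1 stand far above the other labels in CNT whole cells and not in CNT nuclei, whereas Slc8a1 is high in CNT and DCT nuclei.

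How far a gene marks its label also differed between the preparations. In whole cells, S100g outside CNT stood at 2.85% (DCT), 1.00% (LH(AL)) and 0.81% (proximal tubule) of its CNT level. In nuclei these shares were 40.4%, 46.0% and 48.0%, with 525 CPM in CNT against 212, 241 and 252 CPM elsewhere. At 500 UMIs a barcode, 95.9% of CNT whole cells and 32.3% of CNT nuclei held an S100g UMI, beside 7.54% of proximal tubule cells and 11.4% of proximal tubule nuclei, which should lack it. Without thinning, these 4 shares were 96.9%, 52.2%, 20.7% and 22.6%. Slc8a1 was also less confined to its label in nuclei. In whole cells Slc8a1 stood at 16.4% of its CNT level in DCT and 0.54% in the proximal tubule, and in nuclei at 37.7% and 4.68%, with a UMI in 42.3% of CNT cells and 91.3% of CNT nuclei (73.2% and 96.3% without thinning). Of the proximal tubule, 0.36% of cells and 26% of nuclei held an Slc8a1 UMI (1.16% and 45.6% without thinning). Slc12a1 stood at 0.76% of its LH(AL) level in proximal tubule cells and at 4.52% in proximal tubule nuclei, and 2.48% and 21.1% of those barcodes held a UMI of it (6.49% and 36.8% without thinning), beside 87.1% and 98.1% in LH(AL) (93.5% and 100%). Umod in DCT was 28.5% of its LH(AL) level in whole cells and 15.9% in nuclei. Slc12a3 in CNT was 36.6% of its DCT level in whole cells and 32.5% in nuclei. Trpm6 was more confined to DCT in nuclei when set against the proximal tubule, at 5.66% of its DCT level in whole cells and 2.66% in nuclei. In the proximal tubule, the marker sums of LH(AL), DCT and CNT stood at 2.30%, 1.57% and 0.85% of their own level in whole cells. In nuclei these shares were 6.08%, 3.41% and 5.79%. Against the other distal labels the sums went both ways. The LH(AL) sum in DCT was 11.8% in whole cells and 7.11% in nuclei, and in CNT 1.45% and 2.997%. The DCT sum was 10.05% and 3.88% in LH(AL) and 55.3% and 38.2% in CNT. The CNT sum was 1.21% and 5.21% in LH(AL) and 8.41% and 36.3% in DCT. S100g gave 5509 of 7019 counts of the CNT sum in whole cells, and Slc8a1 gave 4679 of 5387 in nuclei.

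Over the pool, the median ratio of each segment list lay between -0.51 and -0.17 on the log2 scale, nearer to 0 than the -0.82 of all genes. Of all genes, 20.4% passed 2-fold upward and 46.4% downward. Of 18 measured genes of the thick ascending limb list, 3 passed 2-fold upward and 6 downward over the pool (median log2 ratio -0.17). Of 18 genes of the distal convoluted tubule list, 3 were higher and 8 lower (-0.51), near the shares of all genes. Of 18 genes of the connecting tubule list, 7 were higher and 6 lower (-0.25). With TMM scaling these medians turned positive, to 0.52, 0.18 and 0.44, and with median-of-ratios scaling to 0.62, 0.27 and 0.54. In the label each list belongs to, the medians were 0.18, -0.92 and -0.06, beside -0.996, -0.59 and -0.89 for all genes of LH(AL), DCT and CNT, so the list of the distal convoluted tubule lay below the other genes of its own label. In the proximal tubule labels of the same libraries, they were -1.60, -2.02 and -2.09.

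The pump that drives transport in all 3 segments was higher in whole cells. Atp1b1, the beta subunit of the sodium pump, was at 7052 against 1532 CPM over the pool (log2 ratio 2.20, 2.11 to 2.29), and its log2 ratio was 1.82 in LH(AL), 2.31 in DCT and 2.66 in CNT. Fxyd2 was at 5263 against 649 CPM (3.02, 2.89 to 3.15). Bsnd, the barttin subunit needed for chloride exit, was within 2-fold, at 61.1 against 33.5 CPM (0.87, 0.15 to 1.61). The basolateral potassium channel subunits Kcnj10 and Kcnj16 had values of 0.64 (0.21 to 1.09) and -0.18 (-0.34 to -0.01), and TMM scaling moved Kcnj16 to 0.51. In this list of 8, 3 genes passed 2-fold upward and 0 downward, beside 20.4% and 46.4% of all genes. The median of the list was 0.76, beside -0.82 for all genes.

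Of 16 measured members of the list of WNK and sodium transport regulators, 3 passed 2-fold upward and 9 downward, beside 20.4% and 46.4% of all genes. Their median was -1.11, beside -0.82 for all genes, and 0.39 against genes of like length, where 5 were higher and 2 lower. The kinases Wnk1 and Wnk4 stood in DCT at 2410 against 4568 CPM (log2 ratio -0.92, -1.06 to -0.78) and at 225 against 424 CPM (-0.92, -1.38 to -0.45). Stk39, the SPAK kinase that phosphorylates Slc12a3, was at 151 against 405 CPM in DCT (-1.42, -1.96 to -0.90). Nedd4l, the ubiquitin ligase that removes ENaC from the membrane, was at 75 against 525 CPM over the pool (-2.81, -3.24 to -2.40). The 3 higher members were Calb1, Hsd11b2 and Ppp1r1a, a phosphatase inhibitor at 1021 against 413 CPM (1.31, 1.12 to 1.50). Of these, Calb1 is a calbindin and not a regulator of sodium transport, although the list holds it. Among 18 genes of calcium and magnesium handling, 4 were higher and 9 lower, which is near the shares of all genes (20.4% and 46.4%), as is the median of -0.81.

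Many transcription factors of these segments were lower in whole cells. Of 23 measured, 1 passed 2-fold upward and 14 downward, beside 20.4% and 46.4% of all genes (median -1.47), and their sum was 1997 CPM in whole cells and 9572 CPM in nuclei. Esrrg, an orphan nuclear receptor of oxidative metabolism, was at 139 against 2677 CPM (log2 ratio -4.27, -4.57 to -3.98). Mecom was at 179 against 2038 CPM (-3.51, -3.78 to -3.25), and Pax8, a kidney lineage factor, at 11.1 against 172 CPM (-3.95, -5.19 to -2.94). The coactivator Ppargc1a was at 186 against 722 CPM (-1.95, -2.24 to -1.68). Tfap2b, a factor needed for distal tubule differentiation, differed little, at 267 against 321 CPM (-0.27, -0.54 to 0.01), and with TMM scaling at 0.43. The 1 higher member, Irx3, rested on 16 and 7 counts (1.41, 0.05 to 2.93).

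Cell junction genes lay on both sides. Epcam, a membrane adhesion protein, was at 332 against 55.1 CPM (log2 ratio 2.59, 2.13 to 3.08), and Cldn8, a claudin with a single exon in the annotation, at 97.3 against 9.57 CPM (3.34, 2.29 to 4.61). The polarity scaffolds Magi1, Pard3 and Patj were higher in nuclei, at 80.6 against 473 CPM (-2.55, -2.98 to -2.15), 129 against 571 CPM (-2.14, -2.48 to -1.82) and 44.5 against 373 CPM (-3.07, -3.64 to -2.54). In all, 5 of 22 were higher and 10 lower, near the 20.4% and 46.4% of all genes, with a median of -0.80, beside -0.82.

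**Figure D3:**
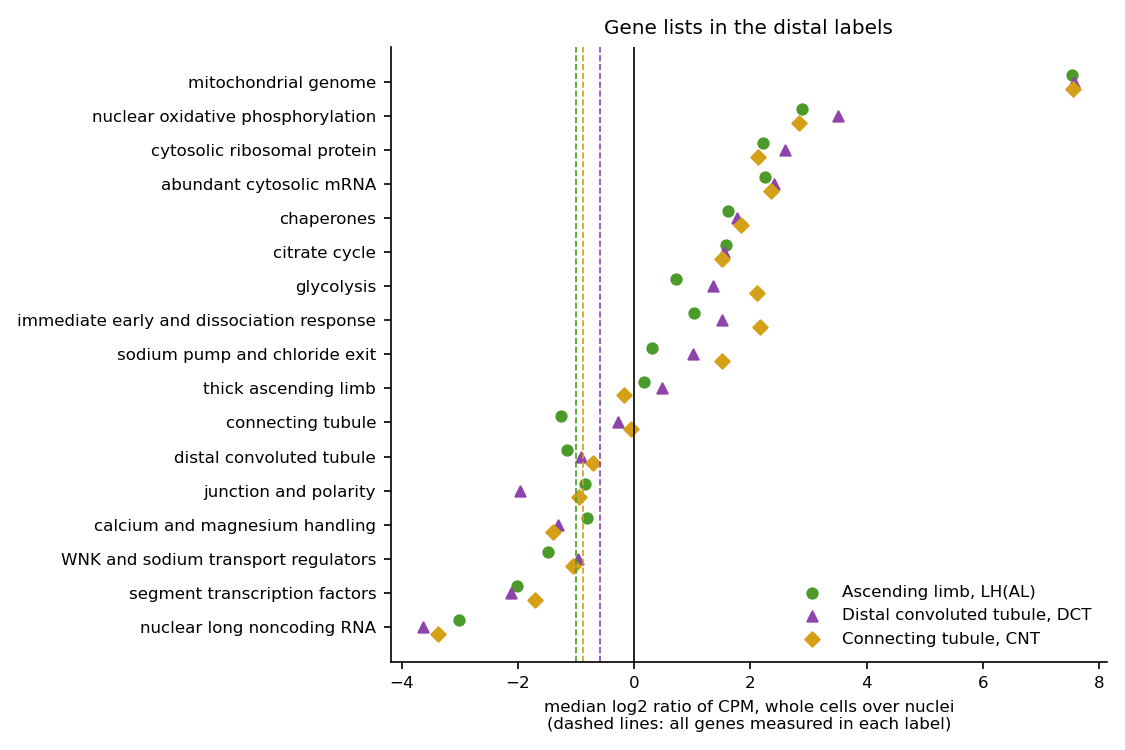
Median log2 ratio of CPM, whole cells over nuclei, of the measured members of each gene list in LH(AL) (circles), DCT (triangles) and CNT (diamonds), with dashed lines at the median of all genes measured in each label. Lists of cytoplasmic and mitochondrial products lie to the right of 0 and those of nuclear noncoding RNA and transcription factors to the left of the dashed lines.

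Products of the cytoplasm and mitochondria were higher in whole cells in each of the 3 labels. Transcripts of the mitochondrial genome were 27.8%, 26.9% and 24.9% of UMIs in LH(AL), DCT and CNT whole cells and 0.22%, 0.19% and 0.20% in nuclei. Over the pool, 20.4% of all genes were at least 2-fold higher in whole cells and 46.4% lower. Of 82 ribosomal protein genes, 79 passed 2-fold in favour of whole cells (median 2.25). Of 75 nuclear genes of oxidative phosphorylation 69 did, with 1 lower (3.10). Enzymes of the citrate cycle were higher for 9 of 14 (1.53), among them Mdh2 at 483 against 67.0 CPM (log2 ratio 2.85, 2.44 to 3.28). Glycolysis genes were higher for 7 of 13, with 1 lower (1.22). Ldhb, the lactate dehydrogenase subunit of oxidative tissue, was at 2044 against 363 CPM (2.49, 2.32 to 2.68), and Hk1 was the lower member, at 73.6 against 171 CPM (-1.22, -1.70 to -0.75, and -0.53 with TMM scaling). All 14 measured genes of abundant cytosolic mRNA were higher (2.12), led in level by the ferritin heavy chain Fth1 at 5469 against 413 CPM (3.73, 3.57 to 3.89). In the other direction, all 8 nuclear long noncoding RNAs were at least 2-fold lower in whole cells (-3.38). Malat1 was at 12570 against 133537 CPM (-3.41, -3.44 to -3.38) and Neat1 at 458 against 2226 CPM (-2.28, -2.45 to -2.11). Snhg11, at 20.8 against 310 CPM (-3.89, -4.75 to -3.15), was the exception when 10x nuclei were used, at -0.32.

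Several stress and injury genes were higher in whole cells. Fos, the immediate early transcription factor, had 40, 7 and 24 counts in LH(AL), DCT and CNT whole cells and is listed at 0 in the nuclei. Jun had 33, 4 and 28 counts in whole cells and 11, 0 and 2 in nuclei, which is 90.3 against 15.6 CPM over the pool (log2 ratio 2.54, 1.66 to 3.52). Both genes had fewer counts in DCT, the deepest of the whole-cell sums, than in the other labels. Junb was at 30.6 CPM on 22 counts and had 0 counts in nuclei, at least 8.51-fold higher against a floor of 3 counts. Of 14 measured members of the immediate early and dissociation response list, 7 were at least 2-fold higher and 0 lower, beside 20.4% and 46.4% of all genes (median 1.14), and 5 more are listed at 0 in the nuclei. These are short genes: against genes of like length their median was 0.22, with 1 higher and 4 lower. Chaperones were higher for 12 of 15 and lower for 0 (1.71), beside 20.4% and 46.4% of all genes. Against genes of like length the pooled chaperone median was 1.23, with 9 higher and 0 lower. Within LH(AL), DCT and CNT it was smaller, at 0.65, 0.20 and 0.51. There 4 of 12, 5 of 13 and 5 of 12 were higher and 0 lower. Hsp90ab1 was at 1166 against 296 CPM (1.98, 1.77 to 2.19), while Hsph1 was at 58.4 against 85.0 CPM (-0.54, -1.13 to 0.03). The value of Hsph1 was 0.15 with TMM scaling, 1.03 with DroNc-seq nuclei as the reference and 0.89 with 10x nuclei. Genes of antigen presentation and interferon response were higher for 4 of 5, with 1 lower (1.92), with B2m at 164 against 22.7 CPM (2.85, 2.14 to 3.63). Against genes of like length the median of these 5 was 0.39, with 1 higher and 0 lower. The injury-associated secreted proteins Spp1 (osteopontin) and Clu (clusterin) were highest in CNT, at 4450 against 115 CPM (5.27, 4.74 to 5.86) and 2210 against 83.5 CPM (4.73, 4.09 to 5.43). Together with Krt8, all 3 measured genes of the 11 on the injury list were higher, beside 20.4% of all genes (median 4.19, and 3.67 against genes of like length). The other members of that list had no ratio over the pool. Distal tubule cells of healthy kidney also express Spp1 and Clu.

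The ratio followed the size of the gene. GENCODE M21 (GRCm38, the assembly also called mm10) gave a length for 99.2% of the 9087 genes by symbol. In 5 equal groups by length from first to last base, the median log2 ratio was 1.24 for genes of up to 11.4 kb, -0.22 up to 24.2 kb, -0.86 up to 44.6 kb, -1.40 up to 96.7 kb and -2.01 for longer ones. The share of genes at least 2-fold higher in whole cells was 55.2% in the shortest group and 5.32% in the longest. In LH(AL), DCT and CNT apart, the medians of the shortest group were 1.39, 2.07 and 1.77 and those of the longest -2.17, -2.15 and -2.18. Grouped by the largest number of exons in a transcript, the medians ran from 0.57 for at most 5 exons to -1.74 for 18 or more. Grouped by the length of the longest mature transcript, they ran from 1.12 for transcripts of up to 1.99 kb to -1.76 above 5.65 kb.

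**Figure D4:**
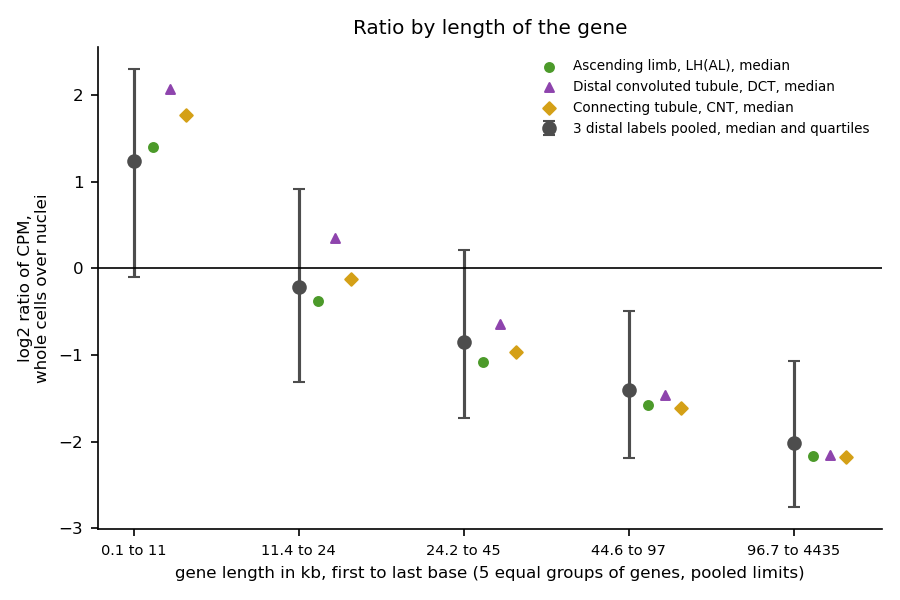
Median log2 ratio of CPM, whole cells over nuclei, in 5 equal groups of genes by genomic length, with quartiles for the 3 labels pooled (large circles, limits of the pooled groups on the axis) and medians for each label, whose groups have their own limits. The median falls from 1.24 in the shortest group to -2.01 in the longest.

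The genes described above sit at both ends of that scale. S100g is a gene of 2.61 kb with 3 exons (chromosome X, 162961992 to 162964599, minus strand, where Ctps2 overlaps it on the other strand), Klk1 one of 4.26 kb with 5 exons (chromosome 7, 44225360 to 44229618) and Sostdc1 one of 4.31 kb with 2 exons. Slc8a1 spans 365 kb (chromosome 17, 81373105 to 81738377), Esrrg 606 kb, Abca13 492 kb and Erbb4 1076 kb (chromosome 1, 68032186 to 69108059). Length did not order all of them: Slc12a3 is 37.0 kb long (chromosome 8, 94329201 to 94366214) and Calb1 26.8 kb, yet they lay on opposite sides. Pooled log2 ratios were set against the median of measured genes of like length, in 20 groups. That of Klk1 was then 3.60, of S100g 2.57, of Calb1 2.82, of Pvalb 4.69 and of Clu 4.26. Slc8a1 was at -1.76, Esrrg at -2.11, Erbb4 at -2.32 and Slc12a3 at -0.39. By the same measure Wnk1 stood at 1.27, although it was lower in whole cells as CPM. DCT held 324421 of 719753 pooled UMIs in whole cells and 207325 of 835552 in nuclei. The pooled value of Slc12a3 is therefore not its value within DCT. Against genes of like length the pooled medians of the thick ascending limb, distal convoluted tubule and connecting tubule lists were 0.44, 0.66 and 0.26. In the label each list belongs to, these medians were 0.27, 0.05 and 0.24. In DCT, 3 members of its list were then at least 2-fold higher and 4 lower. The pooled median of the pump and chloride exit list was 1.37. Transcription factors stayed below such genes, at -0.95, as did nuclear noncoding RNA at -1.83. The list of abundant cytosolic mRNA stood at 0.38 and ribosomal protein genes at 0.41, against 2.94 and 3.07 when set against all genes.

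Several of the largest ratios were also found in the proximal tubule labels. Myo3a was at 15502 against 128 CPM over the distal pool (log2 ratio 6.92, 6.65 to 7.21) and at 12191 against 125 CPM in the proximal tubule labels. Trhde was at 3012 against 20.3 CPM (7.21, 6.53 to 7.99), Racgap1 at 766 against 5.98 CPM (6.999, 5.77 to 8.63) and Col19a1 at 1182 against 27.5 CPM (5.42, 4.83 to 6.09). Their levels in the proximal tubule labels were 2555 against 23.6 CPM, 580 against 3.82 CPM and 923 against 47.3 CPM. Of these, Myo3a, Trhde and Col19a1, span 391, 403 and 326 kb, and their log2 ratios were 9.07, 9.36 and 7.58 against genes of like length. Whether the counted reads lie in exons or introns of these genes or in other genes that overlap them was not tested. At the other end, Acer3, an alkaline ceramidase, was at 41.7 against 1988 CPM (-5.58, -6.15 to -5.06), and Trim30a at 6.95 against 652 CPM (-6.55, -8.18 to -5.32). Against 10x nuclei the log2 ratio of Acer3 was -1.71.

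Other high ratios came from genes with low levels in the proximal tubule. Pgam2, the muscle form of phosphoglycerate mutase, was at 527 CPM in DCT and 560 CPM in CNT whole cells and at 4.82 and 11.9 CPM in the nuclei, beside 11.2 against 3.82 CPM in the proximal tubule. Klk1b3, a kallikrein next to Klk1, had 160 counts in CNT whole cells (815 CPM) and 0 in CNT nuclei, at least 68.3-fold higher against a floor of 3 counts, and 2.88 against 0.70 CPM in the proximal tubule. Kallikrein genes are close copies of each other, so the division of reads between Klk1 and Klk1b3 is uncertain. Cox7a2, a subunit of cytochrome oxidase, was at 1523 against 76.6 CPM over the pool (log2 ratio 4.31, 3.95 to 4.70) and, unlike these, was abundant in the proximal tubule, at 1069 against 113 CPM.

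The ratios of the distal pool were compared with those of the proximal tubule labels of the same libraries (3022 whole cells and 1821 nuclei) for 6535 genes with 10 or more counts in each of the 4 sums. In the proximal tubule, 17.9% of 12838 measured genes passed 2-fold upward and 48.7% downward. The difference of the log2 ratios, distal minus proximal, had a median of 0.12, and 87.7% of the genes lay within 2-fold. It was at least 2-fold above 0 with an interval clear of 0 for 513 genes (7.85%) and below 0 for 214 (3.27%). By the interval bound nearest to 0, Klk1 and S100g came first, with differences of 5.26 (4.98 to 5.54) and 4.82 (4.60 to 5.04). They were at 112 against 123 CPM and 226 against 252 CPM in the proximal tubule. Tmem213, a small membrane protein, was at 393 against 29.9 CPM in the distal pool and at 10.2 against 25.4 CPM in the proximal tubule (difference 5.03, 4.26 to 5.80). Clu and Wfdc2, a secreted WAP-domain protein, had differences of 4.41 (3.69 to 5.12) and 3.64 (2.96 to 4.31). Hsd11b2 and the calcium pump Atp2b4 had differences of 4.19 (3.47 to 4.90) and 4.38 (3.49 to 5.26), the latter with lower levels in whole cells on both sides, at 68.1 against 284 CPM distally and 2.37 against 206 CPM proximally. Against 10x nuclei the pooled distal log2 ratio of Atp2b4 was -0.15.

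Kap, Enox1, Nrxn3 and Ank2 were among the 8 lowest differences. Kap, an abundant androgen-regulated proximal tubule mRNA, was at 33787 against 3538 CPM in the proximal tubule and 7633 against 2696 CPM in the distal pool (difference -1.75, -1.83 to -1.68). Without barcodes that held more proximal tubule than own-label counts, its distal log2 ratio moved from 1.50 to 0.04. Kap is itself among the proximal tubule genes that set this filter. The move therefore cannot show where its distal counts came from, which was not tested. Enox1, Nrxn3 and Ank2 were higher in nuclei distally and in whole cells proximally. Enox1, which is on the thick ascending limb list, was at 40.3 against 209 CPM distally and 39.5 against 25 CPM proximally (difference -3.04, -3.72 to -2.35). Nrxn3 was at 80.6 against 194 CPM and 161 against 48.0 CPM (difference -3.01, -3.51 to -2.51), and Ank2, an ankyrin, at 75 against 138 CPM and 257 against 101 CPM (difference -2.22, -2.72 to -1.72).

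**Figure D5:**
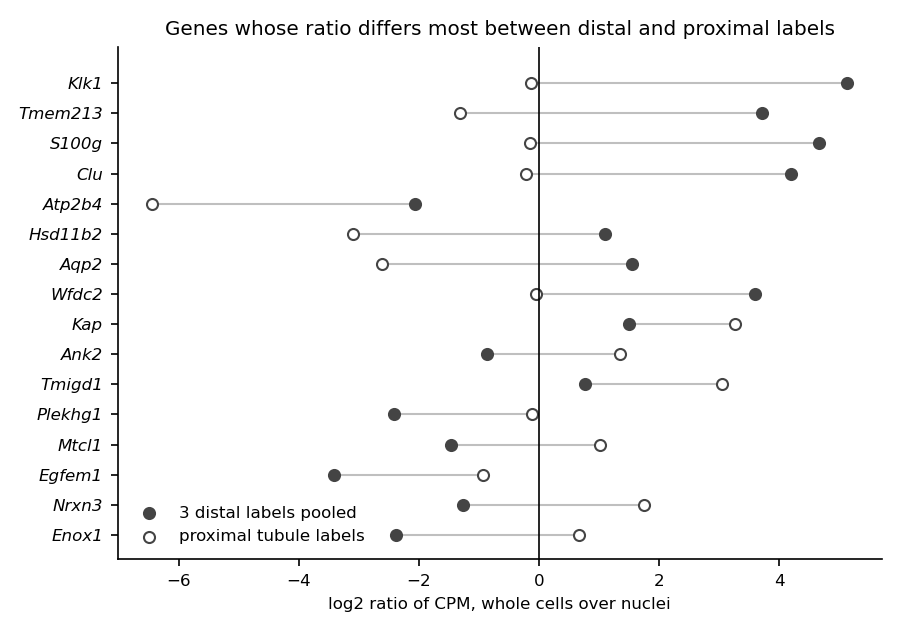
Log2 ratio of CPM, whole cells over nuclei, in the 3 distal labels pooled (filled) and in the proximal tubule labels (open), for the 8 genes with the highest and the 8 with the lowest difference by the interval bound nearest to 0. Klk1, S100g and Clu are near 0 in the proximal tubule and above 4 distally, and Kap is higher in the proximal tubule.

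Markers of other cell types gave the following levels over the pool, where 20.4% of all genes were at least 2-fold higher in whole cells and 46.4% lower. Podocyte genes summed to 138 CPM in whole cells and 1626 CPM in nuclei, and endothelial genes to 13.9 and 241 CPM, with 3 of 4 and 3 of 3 measured members at least 2-fold lower and medians of -2.59 and -3.87. The podocyte median was 0.49 when 10x nuclei were used. Most of the podocyte sum was Magi2, a scaffold gene of 1478 kb that is not limited to podocytes, at 87.5 against 1486 CPM. Intercalated cell genes summed to 135 and 227 CPM (3 of 4 lower, median -1.15). Principal cell genes summed to 567 and 237 CPM (3 of 3 higher, median 1.55), mostly in CNT, at 2001 and 668 CPM. Against genes of like length the principal cell median was 0.02, with 0 higher and 0 lower. Proximal tubule genes were higher for 4 of 20 and lower for 11 (median -1.18, and 1.51 when 10x nuclei were used), with pooled sums of 14694 and 13598 CPM. Descending limb genes (38.9 and 52.7 CPM), stromal genes (90.3 and 162 CPM), macrophage and lymphocyte genes (29.2 and 21.5 CPM) and red blood cell genes (38.9 and 2.39 CPM) had at most 1 measured member each.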

How the data were processed

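The values are raw UMI counts per gene and barcode, which the authors made with zUMIs per the deposited readme, and with STAR 2.5.3a on mm10 per the submitters' processing notes. The treatment of introns and strand in counting, the annotation, the filters and the way barcodes were clustered remain not given in the sources used here. Cell labels were the authors' deposited ones, and 0 columns belonged to no sample. No doublet caller was run, and an alternative left out barcodes above 3 times the median UMIs of their label and library.

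Counts were summed by label and library and scaled to CPM. Log2 ratios carry exact conditional (Clopper-Pearson) 95% intervals, and differences of log2 ratios normal intervals from the counts. Genes needed 20 counts over both sums and a listing in both libraries. There were 185 genes with exactly 20 counts over the pool and 184 with 19. A gene at 0 over a whole library is listed at 0 and has no fold, since the gene filter is not known. No test was run, because each preparation is 1 library. The members, the 28 gene lists and the alternatives were chosen with earlier results of these data known. Named genes were the label markers, per list up to 5 members by level and those 4-fold apart, the 12 highest and lowest of the pool (5 per label) and the 8 highest and lowest of the difference from the proximal tubule, by the interval bound nearest to 0. A few genes that this rule names are not reported here. From the rest, genes were picked for the text with their values known, and Sostdc1, Krt8, Cldn10, Hsph1, Hk1 and members within 2-fold were added in that way. Counts were also simulated from the pooled sums (9144 genes, 200 changed upward in whole cells) with counting error alone. These draws held no spread between barcodes, animals or preparations. In them, 77% of 2-fold and 100% of 4-fold changes gave intervals that did not reach 0. Simulated per label, the 2-fold share was 74.7% in LH(AL) with 5522 genes, 62% in DCT with 4801 and 70% in CNT with 4492. Python 3.11.15, numpy 2.4.6, scipy 1.17.1, pandas 2.3.3, matplotlib 3.10.9 and, for TMM alone, edgeR 4.0.16 under R 4.3.3 were used.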

Additional observations from a re-analysis of the deposited data

Results flagged for a closer look

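Aqp2, the vasopressin-regulated water channel, had opposite ratios in the distal and the proximal tubule labels of the same libraries. In the distal pool it was at 154 CPM in whole cells and 52.7 CPM in nuclei (log2 ratio 1.55, interval 1.03 to 2.09), and in the proximal tubule labels at 3.22 and 19.8 CPM (-2.62, -3.45 to -1.85). The difference was 4.17 (3.27 to 5.07) by counting error, and with 1 library per group it was not tested over samples. The distal value is largely that of CNT, which held 109 of 111 pooled Aqp2 counts in whole cells and 40 of 44 in nuclei. The proximal value rests on 19 counts in whole cells and 57 in nuclei. Against 10x nuclei the pooled distal log2 ratio of Aqp2 was 0.09.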

How the results depend on the processing

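No paired analysis was possible because the labels give no replicate numbers and each preparation is 1 library. The minimum of 20 counts over both sums moved every count of genes 2-fold apart by more than 1.5 times in each label. With a minimum of 1, genes higher and lower in whole cells numbered 2212 and 4417 in LH(AL), 2247 and 4763 in DCT and 2371 and 4276 in CNT. With a minimum of 100 they numbered 236 and 537 in LH(AL), 328 and 250 in DCT, 180 and 305 in CNT, and 799 and 1558 over the pool. Without barcodes that held more proximal tubule than own-label counts, 662 genes were higher and 1694 lower in LH(AL), and 1383 were lower in CNT, with fewer genes measured. Over the pool, TMM scaling left 2712 lower, and median-of-ratios scaling left 2789 higher and 2551 lower. Of values at least 2-fold apart, 4 changed sign, all against 10x nuclei: the log2 ratios of Pvalb in DCT (-0.30) and Aqp2 in CNT (-0.0013), and the pooled medians of the proximal tubule (1.51) and podocyte (0.49) markers. The cause was not tested. The comparison with genes of like length was chosen after seeing the data. Recomputed under the alternatives, the 123 single-gene ratios stayed within their interval 1214 times and left it 439 times, mostly under the 4 other scalings, and ratios at least 2-fold apart changed sign 2 times. For the 24 list medians, with an order-statistic interval, these numbers were 299, 26 and 2. The smallest sum, 196422 UMIs in CNT whole cells, limits genes of few counts most, and a gene under 20 counts has no ratio here.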
